A study of Mus musculus with 12 samples.

Results

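Contractile and basal myoepithelial genes were read in lesions of the hyperplastic mammary gland of MIC mice. The set has 9 genes, taken by symbol from a deposited table of 54532 genes, and all 9 are in it. They are Acta2, Actg2, Myh11, Cnn1, Mylk, Tagln and Lmod1 of the smooth muscle contractile apparatus, the oxytocin receptor Oxtr and the basal transcription factor Trp63. RNA sequencing was done on 4 Stat3 ko, 4 Chi3l1 ko and 4 WT libraries, and all 12 are from female FVB/N mice that carry the MIC transgene and were given doxycycline at 2 mg/ml in drinking water. The sample titles also carry 2 wk. In MIC mice doxycycline turns on the polyoma middle T oncogene and Cre recombinase in mammary epithelium, so the WT animals are wild type at Stat3 and Chi3l1 but carry the oncogene as well. The labels do not say whether either deletion was made by that Cre or in the germ line, nor whether a library is 1 gland or a pool. Each title carries a number of its own, but the labels do not state that the 4 libraries of a group are separate animals, so p-values measure the spread between these libraries.

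The mammary duct and alveolus have an inner luminal layer, which makes milk, and an outer basal layer of myoepithelial cells that rest on the basement membrane. Myoepithelial cells are epithelial cells that also hold smooth muscle actin and myosin: oxytocin binds its receptor on them, calcium rises, myosin light chain kinase acts on myosin, and the cells squeeze milk out. Their basal identity rests on the transcription factor p63 and on keratins 5 and 14. The smooth muscle cells and pericytes of blood vessels use most of the same contractile genes, so in RNA from whole gland those transcripts come from both sources, and fewer cells of a type cannot be told apart from less RNA per cell.

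The libraries held 16217143 to 22607123 gene counts. In Stat3 ko libraries Stat3 was at 12.2 to 18.7 FPKM (fragment counts divided by gene length and sequencing depth), against 46.2 to 49.7 in WT, and its log2 fold change was -1.56 ± 0.12 (SE, limma adjusted p = 5.6e-05). Chil1, the mouse symbol of Chi3l1, was at 0 to 0.0323 FPKM in Chi3l1 ko libraries, against 107 to 212 in WT. Luminal keratins marked the tissue as mammary epithelium, with Krt8 at 722 ± 157 FPKM in WT (SD, n = 4). A single library, Stat3 ko 1, stood apart. It was highest of the 12 for 7 of the 9 genes, and it also had the highest share of mitochondrially encoded counts, 4.79%, and the highest summed level of adipocyte, vascular mural, fibroblast and endothelial markers. Results that rest on it are given with and without it.

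Acta2, smooth muscle α-actin, is the thin filament actin of these cells (ENSMUSG00000035783, GRCm38 chromosome 19, 34241090 to 34255336, minus strand). It was at 186, 22.1, 73.4 and 31.7 FPKM in Stat3 ko libraries 1 to 4, at 15.5, 29.3, 15.1 and 11.7 in Chi3l1 ko, and at 13.4, 11.6, 20.1 and 21.6 in WT. Every Stat3 ko library was above every WT library, whereas Chi3l1 ko and WT overlapped. The means were 78.3 ± 75.2 FPKM in Stat3 ko, 17.9 ± 7.79 in Chi3l1 ko and 16.7 ± 4.94 in WT (SD, n = 4 each). The exact two-sided permutation test of Stat3 ko against WT gave p = 0.0286, the smallest that 4 against 4 allows, in a family of 27 unadjusted tests of the 9 genes in 3 comparisons. Of all 13643 genes tested, 9.67% were higher in every Stat3 ko than in every WT library. Stat3 ko 1 was 4.39 times the mean of the other 3 Stat3 ko libraries, and the lowest Stat3 ko value, 22.1, was close to the highest WT value, 21.6.

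The promoter of Acta2 is a textbook target of serum response factor, which binds CArG boxes, and of TEAD factors, which bind MCAT elements. RefSeq windows of 250 bases before to 50 after the start (GRCm38.p6) were given for 5 of the 9 genes, and 4 are shown: those of Acta2, Cnn1 and Mylk, which were among the larger fold changes in Stat3 ko, and that of Lmod1, the steadiest gene. Capitals mark a CArG box, CC followed by A or T at each of 6 positions and then GG, with at most 1 of those 6 letters changed, or the MCAT core GGAATG on either strand. The Mylk window lies inside the span given for the gene, at a start other than its first.
Acta2, chr19:34255324-34255623, minus strand: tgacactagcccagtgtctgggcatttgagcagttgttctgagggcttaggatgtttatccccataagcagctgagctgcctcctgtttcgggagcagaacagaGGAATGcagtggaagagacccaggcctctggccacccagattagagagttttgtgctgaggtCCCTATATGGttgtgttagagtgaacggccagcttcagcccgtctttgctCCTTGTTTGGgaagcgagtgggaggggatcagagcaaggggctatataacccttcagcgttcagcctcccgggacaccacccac
Cnn1, chr9:22099003-22099302, plus strand: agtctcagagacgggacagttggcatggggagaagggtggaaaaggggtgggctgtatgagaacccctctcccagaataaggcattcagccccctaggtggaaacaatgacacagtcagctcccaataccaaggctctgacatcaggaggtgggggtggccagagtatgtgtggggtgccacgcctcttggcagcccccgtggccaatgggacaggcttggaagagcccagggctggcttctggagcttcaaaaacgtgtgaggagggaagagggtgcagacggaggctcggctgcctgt
Mylk, chr16:34784700-34784999, plus strand: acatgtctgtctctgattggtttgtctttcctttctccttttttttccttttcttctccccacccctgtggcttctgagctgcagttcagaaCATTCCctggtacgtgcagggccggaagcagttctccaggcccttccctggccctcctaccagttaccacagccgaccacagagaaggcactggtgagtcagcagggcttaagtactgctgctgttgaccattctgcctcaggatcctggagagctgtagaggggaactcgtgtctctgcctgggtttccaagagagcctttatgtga
Lmod1, chr1:135324563-135324862, plus strand: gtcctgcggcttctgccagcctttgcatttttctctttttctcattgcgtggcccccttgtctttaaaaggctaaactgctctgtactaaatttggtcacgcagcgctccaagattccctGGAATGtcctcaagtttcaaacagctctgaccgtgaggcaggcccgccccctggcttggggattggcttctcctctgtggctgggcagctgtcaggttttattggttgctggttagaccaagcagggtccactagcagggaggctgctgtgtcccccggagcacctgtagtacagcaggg
The Acta2 window held CArG-like matches at -84 to -75 and -34 to -25, counted from the start, and an MCAT core at -146 to -141. Mylk had an MCAT core at -158 to -153 and Lmod1 had one at -130 to -125. No match was found in the Cnn1 window or in that of Oxtr, which is not shown. A CArG box with at most 1 changed letter was in 9.98% of all 32851 RefSeq windows, the unchanged box was in 1.63% of them and in 0 of the 5, and an MCAT core was in 14.7%. The motifs do not overlap, and a match is a stretch of letters only.

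Actg2 encodes smooth muscle γ-actin (ENSMUSG00000059430, chromosome 6, 83512905 to 83536265, minus strand). It was far below Acta2, at 3.93, 0.782, 2.72 and 0.510 FPKM in Stat3 ko, 0.310, 1.05, 0.258 and 0.468 in Chi3l1 ko and 0.647, 0.201, 1.29 and 0.604 in WT. Stat3 ko 1 and 3 were the highest of the 12, while Stat3 ko 2 and 4 lay among the WT values. The gene had only 7 to 102 counts in a library, and its coding sequence is close to those of the other muscle actins, so how reads were split between them is uncertain.

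Myh11 is the smooth muscle myosin heavy chain, the motor that pulls on these actin filaments (ENSMUSG00000018830, chromosome 16, 14194535 to 14291372, minus strand). Its level was 17.8, 2.99, 4.51 and 1.37 FPKM in Stat3 ko, 0.408, 1.99, 0.647 and 0.634 in Chi3l1 ko, and 0.707, 0.706, 1.50 and 1.24 in WT. In 3 of the 4 Stat3 ko libraries it was above all WT libraries, and Stat3 ko 4 lay between WT 3 and WT 4. The exact permutation test against WT gave p = 0.0571.

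Cnn1, calponin 1, binds actin and damps the myosin motor (ENSMUSG00000001349, chromosome 9, 22099216 to 22109630, plus strand). It was the most variable of the 9, at 17.7, 0.384, 3.45 and 1.24 FPKM in Stat3 ko, 0.0882, 0.926, 0.293 and 0.0410 in Chi3l1 ko and 0.123, 0.0817, 0.674 and 0.649 in WT. Its lowest library had 2 counts and its highest 807, a 432-fold span of FPKM. Stat3 ko 1, 3 and 4 were above the other 9 libraries, and Stat3 ko 2 lay within the WT range. The mean was 5.69 ± 8.11 FPKM in Stat3 ko, 0.337 ± 0.407 in Chi3l1 ko and 0.382 ± 0.324 in WT (SD, n = 4 each), and Stat3 ko 1 was 10.5 times the mean of the other 3.

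Mylk encodes myosin light chain kinase, the calcium and calmodulin switch that starts contraction (ENSMUSG00000022836, chromosome 16, 34745210 to 35002420, plus strand). It was at 8.44, 3.16, 2.87 and 1.43 FPKM in Stat3 ko, 0.961, 1.26, 0.855 and 1.05 in Chi3l1 ko and 0.999, 0.969, 1.78 and 1.002 in WT. All 4 Stat3 ko libraries were above all 4 Chi3l1 ko libraries, by an exact permutation test with p = 0.0286, while WT 3 exceeded Stat3 ko 4. Among all genes tested, 6.85% were higher in every Stat3 ko than in every Chi3l1 ko library. Of its exon bases, 6.85% are also exon of a gene on the opposite strand.

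**Figure D1:**
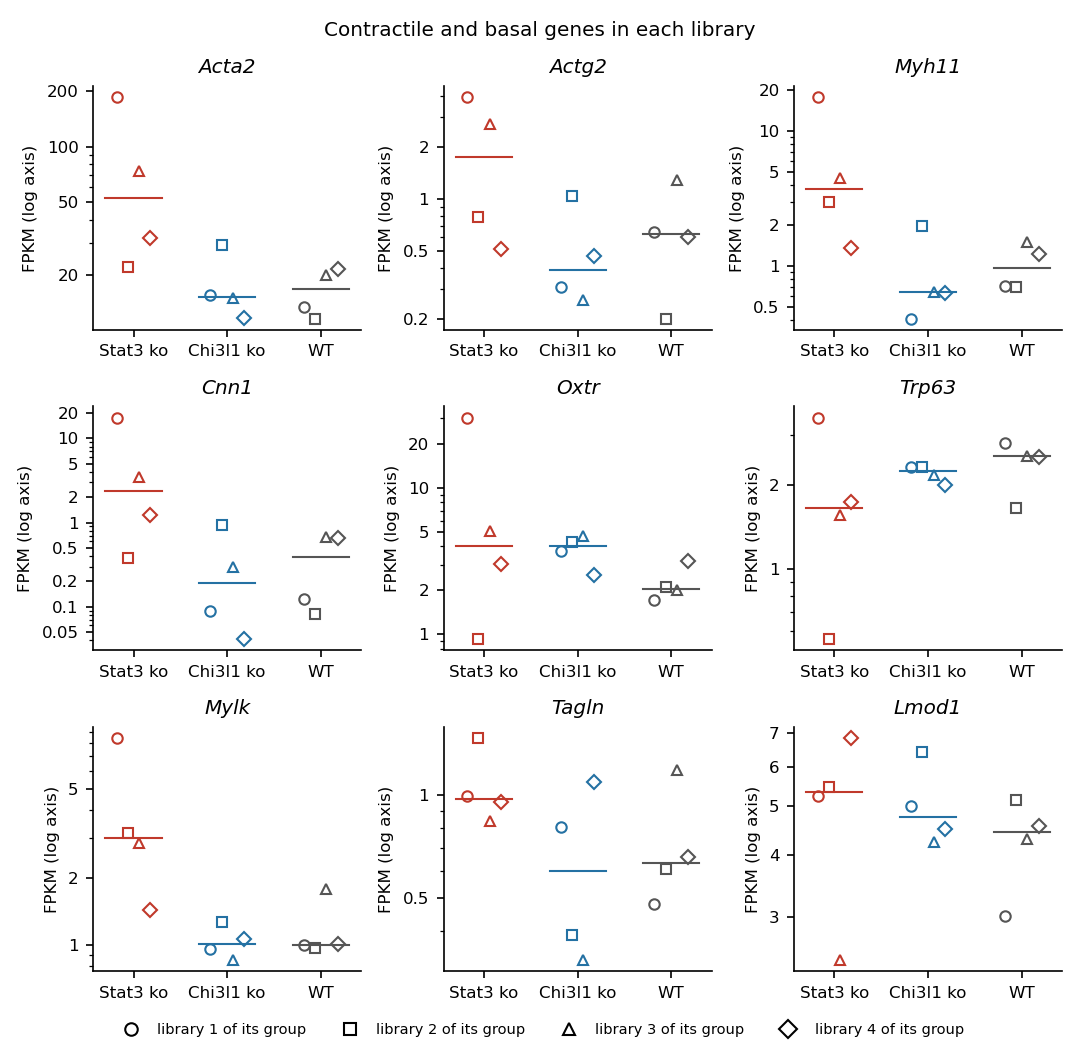
FPKM of each of the 9 genes (log axis, a scale of its own per gene) in the 4 libraries of each group, with symbols for library 1 to 4 and a bar at the group median. Stat3 ko 1 is the highest library for 7 genes, at 186 FPKM for Acta2 and 30.3 for Oxtr, and Tagln and Lmod1 do not follow it.

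Oxtr, the oxytocin receptor, is the entry point of the contraction signal (ENSMUSG00000049112, chromosome 6, 112473683 to 112489943, minus strand). Its FPKM was 30.3, 0.925, 5.06 and 3.01 in Stat3 ko, 3.73, 4.29, 4.68 and 2.56 in Chi3l1 ko and 1.73, 2.10, 2.00 and 3.20 in WT. The Stat3 ko group held both the highest and the lowest of the 12 values, a 32.8-fold span. In Chi3l1 ko, 3 of 4 libraries were above every WT library, and the mean was 3.81 ± 0.921 FPKM against 2.26 ± 0.646 in WT (SD, n = 4 each, exact permutation p = 0.0571).

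Trp63 encodes p63, which the basal layer needs to keep its identity (ENSMUSG00000022510, chromosome 16, 25683763 to 25892102, plus strand). It stood at 3.47, 0.561, 1.56 and 1.73 FPKM in Stat3 ko, 2.32, 2.31, 2.16 and 2.00 in Chi3l1 ko and 2.81, 1.65, 2.52 and 2.52 in WT. Stat3 ko 1 was the highest of the 12, Stat3 ko 2 and 3 were below every WT library, and Stat3 ko 4 was just above the lowest WT library. The Chi3l1 ko libraries were close together and inside the WT range.

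Tagln, transgelin or SM22α, is an actin-binding protein that smooth muscle normally makes in large amounts (ENSMUSG00000032085, chromosome 9, 45929619 to 45936058, minus strand). Here it was low, at 0.996, 1.48, 0.839 and 0.958 FPKM in Stat3 ko, 0.809, 0.387, 0.328 and 1.10 in Chi3l1 ko and 0.479, 0.607, 1.19 and 0.657 in WT, with 13 to 53 counts in a library. Acta2 varied 16.1-fold over the libraries and Tagln 4.50-fold, with Stat3 ko 2 the highest for Tagln. In the GENCODE M21 annotation 67.9% of its exon bases, 1349 of 1988, are also exon of Pcsk7 or Gm48529 on the opposite strand, and the sources used here do not say whether strand was used or how reads over both genes were counted. Reads of Tagln and of those genes therefore cannot be told apart, and its values are uncertain.

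Lmod1, leiomodin 1, starts actin filaments in smooth muscle (ENSMUSG00000048096, chromosome 1, 135324807 to 135368065, plus strand). It was the steadiest of the 9, at 5.24, 5.45, 2.46 and 6.85 FPKM in Stat3 ko, 5.01, 6.43, 4.24 and 4.50 in Chi3l1 ko and 3.02, 5.14, 4.30 and 4.57 in WT. Its highest library was 2.78 times its lowest, and Stat3 ko 3, second highest of the 12 for 5 of the genes, was the lowest for Lmod1.

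Since FPKM is scaled to gene length, levels of different genes can be set side by side. In Stat3 ko the group means ran Acta2 78.3, Oxtr 9.83, Myh11 6.68, Cnn1 5.69, Lmod1 5.002, Mylk 3.97, Actg2 1.99, Trp63 1.83 and Tagln 1.07 FPKM. In WT the order was Acta2 16.7, Lmod1 4.26, Trp63 2.38, Oxtr 2.26, Mylk 1.19, Myh11 1.04, Tagln 0.734, Actg2 0.684 and Cnn1 0.382. Acta2 was above the other 8 in every library of both groups. Among the WT levels Lmod1 overlapped Oxtr, Trp63 and Oxtr overlapped, as did Mylk and Myh11, and Tagln, Actg2 and Cnn1. Mylk also overlapped Trp63, Oxtr, Tagln and Actg2, and Myh11 overlapped Tagln and Actg2. The order of genes that overlapped is within the spread. The places of Oxtr, Myh11 and Cnn1 in Stat3 ko rest on Stat3 ko 1. Without that library Acta2 was at 42.4 and Lmod1 at 4.92 FPKM, and Oxtr at 2.997, Myh11 at 2.96, Mylk at 2.48 and Cnn1 at 1.69 came after Lmod1.

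Which of these genes differ between genotypes was tested with limma on log2(FPKM + 1) over all 12 libraries, with Benjamini-Hochberg adjustment over the 13643 genes that had at least 1 FPKM in at least 4 libraries. Actg2, Myh11, Oxtr, Trp63, Mylk, Acta2 and Lmod1 passed that filter and Cnn1 and Tagln, with 3 libraries each at 1 FPKM, did not. The pseudocount of 1 makes fold changes of the lowest genes smaller.

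For Stat3 ko minus WT, the smooth muscle motor, actin and kinase genes had the largest differences of the 7, but none passed adjusted p = 0.05 in limma. Acta2 had a log2 fold change of 1.73 ± 0.55 (SE, adjusted p = 0.058), Myh11 1.48 ± 0.51 (adjusted p = 0.073) and Mylk 1.02 ± 0.32 (adjusted p = 0.057). Actg2 was at 0.69 ± 0.36, Oxtr at 0.95 ± 0.64, Lmod1 at 0.15 ± 0.23 and Trp63 at -0.34 ± 0.25, with adjusted p of 0.20 to 0.68. Of all genes tested, limma called 14.0% in either direction, 5.61% higher and 8.39% lower in Stat3 ko. At an unadjusted p under 0.05 it had 3 of the 7, and 34.1% of all genes. The median log2 fold change of the 7 was 0.95, against -0.02 for all genes tested. With Stat3 ko 1 left out this median was 0.39, against -0.006 for all genes. Without the filter Cnn1 was at 1.57 ± 0.67 (adjusted p = 0.39) and Tagln at 0.26 ± 0.18 (adjusted p = 0.76), and their exact permutation tests gave p = 0.0857 and 0.143.

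Count-based tests on the whole reads recovered from the FPKM values called more. edgeR's quasi-likelihood test called 3 of the 7 higher in Stat3 ko, where it called 9.70% of all genes higher. They were Acta2 with a log2 fold change of 2.29 (adjusted p = 0.030), Myh11 with 2.74 (adjusted p = 0.036) and Mylk with 1.79 (adjusted p = 0.028). DESeq2 called these and Oxtr, 2.20 ± 0.74 (SE, adjusted p = 0.017), where it called 15.3% of all genes higher. In the authors' deposited table, which lists genes with an unadjusted p under 0.05, Myh11 had a log2 fold change of 2.69 with adjusted p = 0.0016, Cnn1 3.91 with 0.0020, Acta2 2.23 with 0.0033 and Mylk 1.74 with 0.0074. Oxtr had 2.13 with adjusted p = 0.051 and Actg2 1.54 with 0.14 in the authors' deposited table, and Trp63, Tagln and Lmod1 were not listed. The authors' deposited table lists 6155 genes for this comparison, 3547 of them with an adjusted p under 0.05.

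Without Stat3 ko 1 the limma fold changes of Stat3 ko minus WT became 1.16 ± 0.41 for Acta2, 0.90 ± 0.32 for Myh11, 0.65 ± 0.20 for Mylk and 0.16 ± 0.33 for Oxtr, with none called among the 7 and 5.94% of all genes called higher. edgeR then called Mylk alone among the 7 (1.09, adjusted p = 0.039), where it called 7.08% of all genes higher. DESeq2 called Acta2 (1.36), Myh11 (1.53) and Mylk (1.08) higher, beside 11.4% of all genes, and Trp63 lower (-0.88 ± 0.32, adjusted p = 0.033), beside 11.0%. Without it Oxtr was called by no tool. Without the libraries over 2% mitochondrial counts, which are Stat3 ko 1 and 2 and Chi3l1 ko 2, limma called Acta2 alone of the 7, where it called 4.52% of all genes higher.

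**Figure D2:**
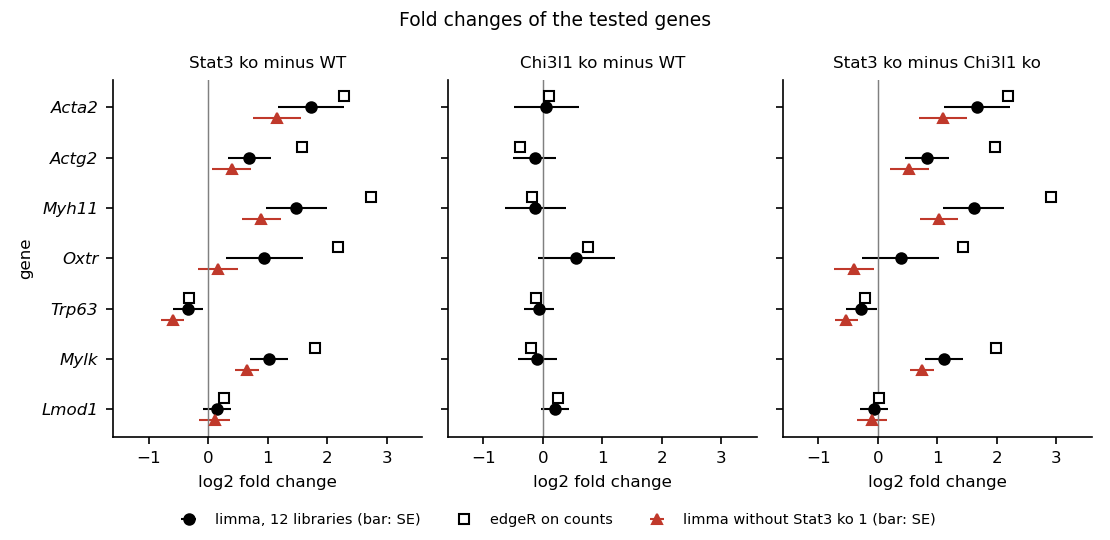
Log2 fold change of the 7 tested genes in the 3 comparisons, as limma estimates over 12 libraries (black circles, bars are SE), edgeR estimates on counts (open squares) and limma estimates without Stat3 ko 1 (red triangles, bars are SE). Acta2, Myh11 and Mylk lie right of 0 in both Stat3 ko panels in all 3 estimates, and Oxtr falls to 0.16 in Stat3 ko minus WT without Stat3 ko 1.

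For Chi3l1 ko minus WT, limma, edgeR and DESeq2 each called 0 of the 7, and limma had 0 of them at an unadjusted p under 0.05. The background was 0.00733% of all genes called by limma and by edgeR, 1 gene, which was Chil1 itself, 0.0586% by DESeq2, and 1.63% in limma at an unadjusted p under 0.05. The log2 fold changes ran from -0.14 ± 0.36 for Actg2 to 0.56 ± 0.64 for Oxtr, and the median of the 7 was -0.07, against 0.00 for all genes. In the authors' deposited table Oxtr was the only one of the 9 listed, with a log2 fold change of 0.77, p = 0.0013 and adjusted p = 0.29. That table lists 824 genes, 31 of them with an adjusted p under 0.05.

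For Stat3 ko minus Chi3l1 ko, limma called 1 of the 7, Mylk, which rose by 1.11 ± 0.32 (SE, adjusted p = 0.045), where it called 13.2% of all genes and 5.19% higher. The Mylk call ended without the libraries over 2% mitochondrial counts, where Acta2 was the 1 gene of the 7 called (1.72 ± 0.36, adjusted p = 0.022) beside 5.46% of all genes higher, and also without Stat3 ko 2 (adjusted p = 0.085), Stat3 ko 3 (0.055), Chi3l1 ko 1 (0.11), Chi3l1 ko 2 (0.056), Chi3l1 ko 3 (0.11) or Chi3l1 ko 4 (0.10), and held without Stat3 ko 4 and without Stat3 ko 1 (0.74 ± 0.20, adjusted p = 0.036), where 5.53% of all genes were called higher. Acta2 was at 1.67 ± 0.55 and Myh11 at 1.61 ± 0.51, with limma adjusted p of 0.069 and 0.061. edgeR called Acta2 (2.18), Myh11 (2.92) and Mylk (2.00) higher, beside 7.25% of all genes, and DESeq2 called these and Actg2 (1.98), beside 13.0%. Oxtr had a limma fold change of 0.38 ± 0.64 with Stat3 ko 1 and -0.40 ± 0.33 without it. The comparisons with WT and with Chi3l1 ko share the same 4 Stat3 ko libraries.

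Some of the 9 genes varied together over the libraries and others did not. Over the 12 libraries log2(FPKM + 1) of Acta2 and Cnn1 had Pearson r = 0.98, of Acta2 and Myh11 r = 0.95 and of Myh11 and Mylk r = 0.97. Without Stat3 ko 1 these were r = 0.98, 0.86 and 0.90 over 11 libraries. Mylk followed Acta2 and Cnn1 less closely without it, with r = 0.68 and 0.61, against 0.88 and 0.89 over all 12. For Oxtr and Acta2 r was 0.81 with Stat3 ko 1 and 0.43 without it. Trp63 and Acta2 had r = 0.22, and -0.24 without that library. With the basal keratins Krt5 and Krt14, r was 0.89 and 0.88 for Trp63, and -0.04 and 0.02 for Acta2. With Snai2, another basal gene, r was 0.62 for Trp63 and 0.84 for Acta2, and 0.47 and 0.57 without Stat3 ko 1. These values describe 12 libraries of 3 genotypes, whose levels of skeletal muscle, adipocyte and lymphocyte markers differed widely, and no p is given for them. The part of tissue makeup in them was not tested.

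The genes outside the set whose levels most resembled the mean standardized level of the 7 tested genes, by Pearson r over 12 libraries, were Myl9, Gm16437, Ehd2, Pcdhgc3, Kank2, Hacd2, Arhgap29 and Scn7a, with r of 0.97 to 0.98. Myl9, the regulatory myosin light chain on which the kinase acts, had r = 0.98, Spearman rho = 0.92 and r = 0.88 without Stat3 ko 1 and 3. It was at 65.3, 12.6, 18.9 and 11.5 FPKM in Stat3 ko, 8.69, 14.6, 8.72 and 9.31 in Chi3l1 ko and 7.75, 6.73, 12.1 and 10.1 in WT. The other 7 had r of 0.76 to 0.89 without those 2 libraries, and all 8 were highest in Stat3 ko 1.

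**Figure D3:**
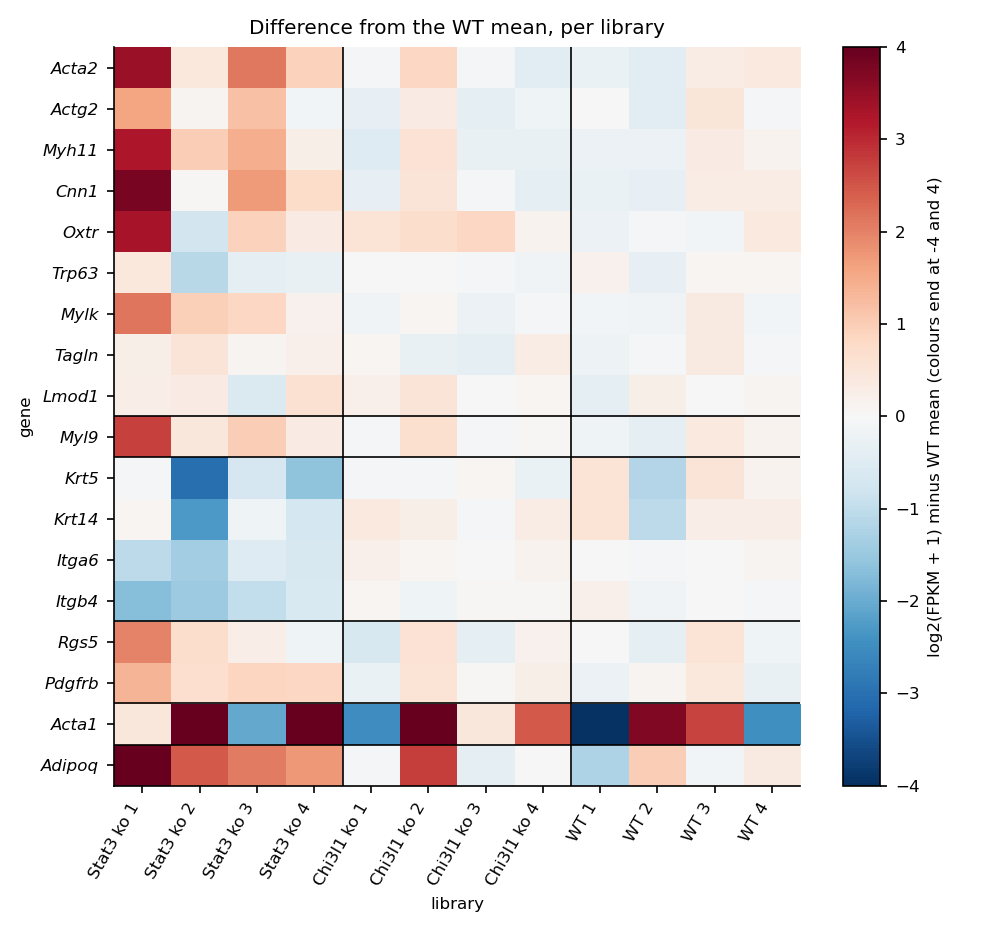
Difference of log2(FPKM + 1) from the WT mean in each library (columns) for the 9 genes, Myl9, 4 basal genes, the mural genes Rgs5 and Pdgfrb, the skeletal actin Acta1 and the adipocyte gene Adipoq (rows, separated by lines). In Stat3 ko 1 the contractile genes, mural genes and Adipoq are above the WT mean while Itgb4 and Itga6 are below it. Some basal genes that are not shown, such as Lama3 and Col17a1, were highest in Stat3 ko 1. In Stat3 ko 2 the basal keratins are lowest.

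Of 14 basal keratin, adhesion and basement membrane genes, all tested, 5 fell and none rose in Stat3 ko against WT, with 4 positive and a median log2 fold change of -0.83, where limma called 8.39% of all genes lower. Keratins and basement membrane genes were among those that did not pass, such as Lama3 at 0.05 ± 0.25 (adjusted p = 0.91) and Col17a1 at -0.48 ± 0.47 (adjusted p = 0.49). Itgb4, the integrin β4 of hemidesmosomes, fell by 1.19 on the log2 scale (SE 0.20, adjusted p = 0.0049), to 11.1 ± 4.13 FPKM against 25.4 ± 2.52 in WT. Its partner Itga6 fell by 0.90 (SE 0.16, adjusted p = 0.0072), and Lamb3, a chain of the laminin that this integrin binds, fell by 1.34 (SE 0.25, adjusted p = 0.0090). These 3 calls held with each Stat3 ko or WT library left out in turn. Cdh3, P-cadherin, fell by 1.07 (SE 0.29, adjusted p = 0.033) but missed the threshold once Stat3 ko 2 (0.067) or WT library 1 (0.088), 3 (0.064) or 4 (0.092) was dropped. Krt5 was at 37.9, 4.16, 24.8 and 12.6 FPKM in Stat3 ko against 58.9, 17.3, 57.7 and 44.3 in WT, and did not pass (adjusted p = 0.12), nor did Krt14 (adjusted p = 0.27). Without Stat3 ko 1, 7 of the 14 fell, where limma called 1017 of all 13643 genes lower. Krt17, Col17a1, Lama3, Dst, Snai2 and Jag2 had their highest level of the 12 libraries in Stat3 ko 1. The others of the 14 had theirs in a Chi3l1 ko or WT library, and Itgb4 and Lamb3 were lowest in Stat3 ko 1. The adhesion genes are not exclusive to basal cells. Of 10 luminal genes 1 was positive, with a median of -0.58, and 1 was called by limma: Elf5, a factor of the secretory luminal cell, fell by 1.77 (SE 0.23, adjusted p = 0.0012).

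The signalling genes between the receptor and the myosin motor were split. Of 17 genes of oxytocin and calcium signalling 16 were tested, and 4 fell and 1 rose in Stat3 ko against WT, with a median of -0.10. Limma called 8.39% of all genes lower and 5.61% higher in that comparison. Orai1, the store-operated calcium channel of the plasma membrane, fell by 1.27 (SE 0.16, adjusted p = 0.0012), to 19.8 ± 4.88 FPKM against 48.3 ± 6.07 in WT. Prkca, protein kinase Cα, fell by 0.61 (SE 0.10, adjusted p = 0.0047) and Plcb3, a phospholipase C that Gq proteins activate, by 0.55 (SE 0.12, adjusted p = 0.015) but Plcb3 missed the threshold once WT 1 was dropped (0.053). Gnaq, a Gq protein through which the oxytocin receptor signals, fell by 0.50 (SE 0.15, adjusted p = 0.044) and missed the threshold with any 1 of the 4 WT libraries dropped (0.077 to 0.11). The gene that rose was Stim1, the calcium sensor that opens Orai1 channels, at 0.96 ± 0.26 (adjusted p = 0.033). It missed the threshold once Stat3 ko library 1 (0.065) or 2 (0.084), or WT library 1 (0.091), 3 (0.074) or 4 (0.086), was dropped. Gnaq, Stim1, Lamb3, Lama3, Col17a1, Cdh3, Krt17, Dst, Snai2 and Jag2 were named after their values were seen. Against Chi3l1 ko libraries, 4 of the 16 fell and none rose, where limma called 1091 of all 13643 genes lower. Among the 4 was Orai1, which fell by 1.20 (SE 0.16, adjusted p = 0.0017). These genes are widely used, by luminal cells too.

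Of 20 other contractile and actin-anchoring genes, 19 were tested and limma called none in Stat3 ko against WT, 13 of them being positive with a median of 0.60. The most abundant were Csrp1, at 177 ± 61.8 FPKM in Stat3 ko against 157 ± 25.8 in WT, and Myl6, at 143 ± 19.4 against 155 ± 11.6. edgeR called 3 of the 19 higher, beside 9.70% of all genes, and DESeq2 4, beside 15.3%. Limma without Stat3 ko 1 called 1 lower, beside 1017 of all 13643 genes, and the median of the 19 was then 0.27. Of serum response factor and its cofactors, Srf was at 25.7 ± 4.19 FPKM in Stat3 ko against 23.8 ± 2.15 in WT and Mkl1 at 10.3 ± 2.86 against 8.25 ± 0.486, and none of the 3 tested was called. Myocd, the smooth muscle cofactor myocardin, was at 0.0654 FPKM or below in every library. In Chi3l1 ko minus WT, limma called none of the tested genes of these lists. DESeq2 called 1 of the 14 basal genes lower there, beside 8 of all 13643 genes.

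The smooth muscle genes were set beside relatives used by other cells. Among actins, cytoplasmic Actb and Actg1 stood at 656 to 1163 and 379 to 849 FPKM in Stat3 ko and 759 to 886 and 682 to 995 in WT, and Acta2 was 28.3% of Actb in Stat3 ko 1 and 1.24% to 6.81% elsewhere. The skeletal muscle actin Acta1 was at 127, 4759, 21.6 and 2509 FPKM in Stat3 ko, 15.7, 3693, 127 and 505 in Chi3l1 ko and 5.03, 1224, 604 and 15.9 in WT. Acta2 ranged from 0.464% to 341% of Acta1 within a library, and their r over the 12 libraries was -0.05. The highest library for Acta1, Stat3 ko 2, had the lowest Acta2 of the 4 Stat3 ko libraries. The skeletal kinase Mylk2 peaked at 63.2 FPKM in Stat3 ko 2, where Mylk was 3.16, and at 53.3 in Chi3l1 ko 2, where Mylk was 1.26. For Lmod1 and Acta1 r was 0.71.

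The nonmuscle myosin Myh9 was at 54.6 to 76.5 FPKM in Stat3 ko and 69.5 to 76.6 in WT, and Myh14 at 9.94 to 19.5 and 17.5 to 19.98. Of 16 tested relatives limma called 1 in Stat3 ko against WT, beside 14.0% of all genes in either direction and 5.61% higher. That gene was Myh10, which rose by 0.58 ± 0.17 (adjusted p = 0.044), to 3.94 ± 1.19 FPKM against 2.24 ± 0.332. It missed the threshold once Stat3 ko library 1 (0.079) or 3 (0.066), or WT library 1 (0.12), 2 (0.094), 3 (0.073) or 4 (0.078), was dropped. Cnn2 was at 33.1 to 102 FPKM in Stat3 ko and 33.4 to 43.6 in WT, and Cnn3 at 37.5 to 61.2 and 61.9 to 66.1, far above Cnn1. Tagln2 was at 80.5 to 139 FPKM in Stat3 ko and 107 to 166 in WT. The p53 relative Trp53 stood at 13.9 to 33.8 and 24.4 to 29.8. Of the vasopressin receptors, relatives of Oxtr, Avpr2 was at 1.04 FPKM or below and Avpr1a at 0.614 or below in every library, and Avpr1b was at 0 in all 12.

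**Figure D4:**
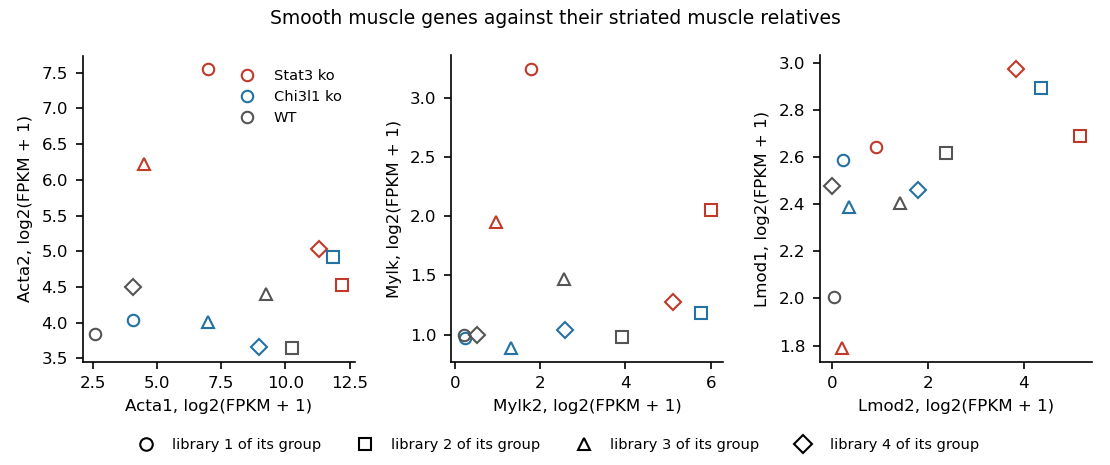
Each smooth muscle gene (vertical axis) against its striated muscle relative (horizontal axis) as log2(FPKM + 1), with 1 symbol per library, coloured by group and shaped by library number. Stat3 ko 1 and 3 are highest for Acta2 at low Acta1, and Stat3 ko 2, highest for Acta1, Mylk2 and Lmod2, is not highest for Acta2, Mylk or Lmod1.

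Markers of other cells that use or accompany these genes also varied. Of 14 vascular mural genes 12 were tested and limma called 2 higher in Stat3 ko than in WT, beside 5.61% of all genes. edgeR and DESeq2 each called 3 higher, beside 9.70% and 15.3% of all genes. Without Stat3 ko 1 limma called 2 higher and 1 lower, beside 811 and 1017 of all 13643 genes. With all 12 libraries Pdgfrb, the pericyte growth factor receptor, rose by 0.92 ± 0.21 (limma adjusted p = 0.020), and Vtn by 1.87 ± 0.45 (adjusted p = 0.024). Pdgfrb missed the threshold once WT library 1 (0.068) or 4 (0.061) was dropped, and Vtn once Stat3 ko 2 (0.052) or WT library 1 (0.075), 3 (0.0504) or 4 (0.066) was. Their summed level was 55.1 to 179.5 FPKM in Stat3 ko, 49.4 to 78.9 in Chi3l1 ko and 46.3 to 79.1 in WT, highest in Stat3 ko 1, and none of the 14 was at 0 in any library. Rgs5, a pericyte gene, was at 44.6, 17.6, 13.0 and 9.28 FPKM in Stat3 ko against 10.5, 7.93, 15.9 and 9.15 in WT. Its r with Acta2 was 0.77, and 0.39 without Stat3 ko 1, while Pdgfrb and Acta2 had 0.82 and 0.70. With Myh11, Mylk, Actg2, Cnn1 and Oxtr, Rgs5 had r = 0.90, 0.90, 0.84, 0.80 and 0.60. Without Stat3 ko 1 these were 0.71, 0.70, 0.65, 0.35 and -0.34, and -0.36, 0.42 and -0.01 with Trp63, Tagln and Lmod1. Such values were not particular to mural genes. The adipocyte gene Adipoq had r = 0.86 with Acta2 and 0.90 with Myh11, and 0.66 and 0.75 without Stat3 ko 1. The part of vascular cells in the level of the contractile genes was not tested.

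Skeletal muscle markers summed to 57.0 to 11771 FPKM in Stat3 ko, 44.0 to 9862 in Chi3l1 ko and 17.2 to 3207 in WT, and limma called none of the 14 tested of 15. Tnnc2 was the only one at 0 in a library. Stat3 ko 1, highest for 7 of the 9 genes, had 342 FPKM, and Stat3 ko 3, second highest for 5, had 57.0. Adipocyte markers summed to 990.2 to 9979 FPKM in Stat3 ko, 272 to 1308 in Chi3l1 ko and 179 to 569 in WT. None was at 0, and limma called 5 of 10 higher than in WT, beside 5.61% of all genes. Without Stat3 ko 1 it called 2 of 10 higher, beside 5.94%. Without the libraries over 2% mitochondrial counts limma called 8 of the 10 higher, beside 4.52% of all genes. With all 12 libraries edgeR called 9 of them higher, beside 9.70% of all genes, and DESeq2 7, beside 15.3%. Cfd, the adipocyte protease adipsin, for example, rose by 2.60 ± 0.66 (adjusted p = 0.028) but missed the threshold once WT library 1 (0.090), 3 (0.066) or 4 (0.068) was dropped. Fibroblast markers summed to 304 to 1172, 212 to 470 and 252 to 796 FPKM in Stat3 ko, Chi3l1 ko and WT, endothelial markers to 60.1 to 195, 33.3 to 60.5 and 38.7 to 60.4, and luminal markers to 1204 to 2850, 2097 to 2837 and 2279 to 3397, none at 0 in any library. Lymphocyte markers summed to 16.4 to 510.4, 12.7 to 20.3 and 9.93 to 23.9 FPKM, with Ms4a1 among those at 0 in some libraries. Limma called 1 of 9 fibroblast, 2 of 8 endothelial and 2 of 8 tested lymphocyte markers higher in Stat3 ko than in WT, beside 5.61% of all genes. edgeR called 1, 5 and 8 of them, beside 9.70% of all genes, and DESeq2 called 2, 7 and 8, beside 15.3%. The limma calls depended on single libraries: of 8 fits with 1 library left out, Pdgfra was called in 5, Eng in 4, Pecam1 in 2, and Cd2 and Cd8a in 3 each, and none was called without the libraries over 2% mitochondrial counts. These 5 genes were named after their values were seen. The part of these cells in the level of the contractile genes was not tested either.

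**Figure D5:**
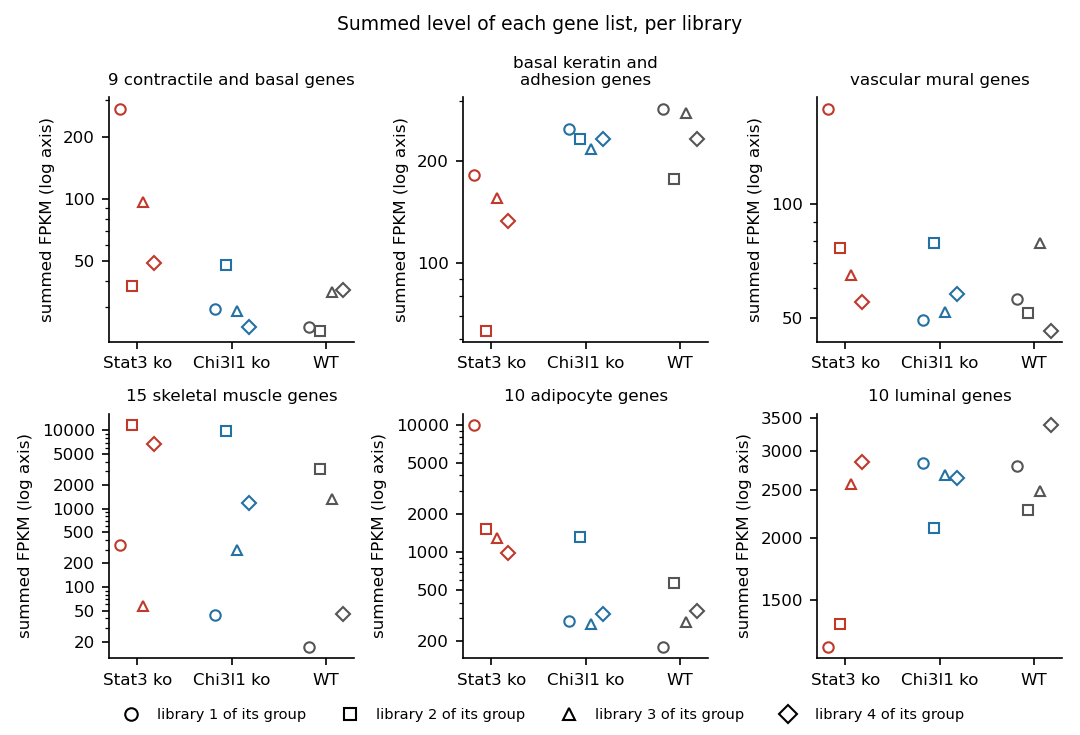
Summed FPKM (log axis) of the 9 genes and of 5 marker lists in each library, by group, with symbols for library 1 to 4. Stat3 ko 1 is highest for the 9 genes, the mural genes and the adipocyte genes, and Stat3 ko 2 is highest for skeletal muscle and lowest for the basal genes at 63.4 FPKM.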

How the data were processed

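Total RNA of 12 lesion samples was sequenced. Per the submitters' processing notes, Trimmomatic, STAR, HTSeq, edgeR and limma were used with GRCm38/mm10. The strand setting is not given in the sources used here. The deposited table gives FPKM per gene as the authors computed it. Whole read counts were recovered from the FPKM steps with a tolerance of 0.001, 100% of values came out whole, and 0 of 55832 values differed from counts the authors deposited. In the authors' comparison tables, log2 fold changes and p-values are deposited for genes with unadjusted p under 0.05, and 36 per-sample columns there were not used.

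Groups follow the genotype labels. The main test was limma 3.58.1 (trend) on log2(FPKM + 1) in R 4.3.3, in 1 fit of 3 groups, on 13643 genes that reached 1 FPKM in 4 or more libraries, with Benjamini-Hochberg adjustment and a threshold of 0.05. edgeR 4.0.16 (quasi-likelihood) and DESeq2 1.42.0 on the recovered counts were alternatives. Single genes were compared by exact two-sided permutation. The limma, edgeR and DESeq2 fits of all 12 libraries were checked on simulated data, and the other settings were not. Leaving out Stat3 ko 1 in edgeR, DESeq2 and the unfiltered fit was added after seeing the data.

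Genes of the other lists were named by a rule: up to 3 called genes with the smallest adjusted p, or the 2 most abundant where none was called. Some genes of these lists are not reported here. The 9 genes and all lists were chosen with earlier results of these data known. Promoter windows come from RefSeq and exon overlaps from GENCODE M21. Depth was 16217143 to 22607123 counts a library.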

Additional observations from a re-analysis of the deposited data

Results flagged for a closer look

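Mylk was at 1.78 FPKM in WT 3, far from the other 3 WT libraries, which lay between 0.969 and 1.002 FPKM. The gap was 0.95 of the range of the group, above the critical value of 0.829 for 4 values. It is 1 of 27 groups of 4 examined, and chance flags about 1 in 20.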

How the results depend on the processing

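Of the 7 genes tested in Stat3 ko minus WT, 0 were called, 1 with a pseudocount of 0.1, with array weights or without libraries over 2% mitochondrial counts, 3 with edgeR and 4 with DESeq2. In that order these settings called 852, 840, 616, 1323 and 2092 of all 13643 genes higher. Leaving out 1 library gave 0 to 3, with 1 without Stat3 ko 2, where 445 of all 13643 genes were called higher, and 3 without Stat3 ko 4, where 1473 were, against 766 with all libraries. Without Stat3 ko 1, edgeR called 1 and DESeq2 4. In Stat3 ko minus Chi3l1 ko, where 1 was called, the count was 2 with a pseudocount of 0.1, 0 with quantile normalization, the compared groups only, no filter, or a filter on a mean of 5 FPKM (2 genes left), 3 with array weights or edgeR, and 4 with DESeq2. Of all 13643 genes, 736 were called higher with a pseudocount of 0.1, 872 with array weights, 989 with edgeR and 1775 with DESeq2. Leaving out 1 library gave 0 to 4, the 4 being without Stat3 ko 4, where 1242 of all genes were called higher, against 708 with all libraries, and without Stat3 ko 1 DESeq2 called 3 and the unfiltered fit 0. In Chi3l1 ko minus WT all settings gave 0.

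Some signs turned. In Chi3l1 ko minus WT, Acta2 was -0.0047 with array weights and -0.19 without libraries over 2% mitochondrial counts, and leaving out 1 library gave -0.19 to 0.22 for Acta2, -0.29 to 0.021 for Actg2 and -0.15 to 0.028 for Mylk. Lmod1 ran from -0.0022 to 0.39 in Stat3 ko minus WT. In Stat3 ko minus Chi3l1 ko it was 0.025 with edgeR and 0.024 with DESeq2, and -0.21 to 0.19 with 1 library left out. Oxtr there ran from -0.40 to 0.95, and without Stat3 ko 1 was -0.33 in edgeR, -0.35 in DESeq2 and -0.40 with no filter. Of 405 values of single genes, 343 kept direction and side of the threshold, 35 newly passed it, 11 no longer did and 16 changed sign. The cause was not tested. Counts of 5 to 35 in WT libraries limit the precision of the Cnn1 values. No paired analysis was possible because the titles carry a different number for each library and none shared between groups.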
